A study of Mus musculus with 4 samples.

Results

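The regions described here are the ends of the 19 mouse autosomes in hippocampal microglia, the macrophages that reside in brain tissue. Mouse autosomes carry their centromere at one end, so each chromosome gives a centromere side and a telomere side. The centromere side was taken as bases 3000001 to 6000000, and the telomere side as the last 3 Mb before the highest base listed for that chromosome in any of the 4 tables. Each side was divided into tiles of 1000 bases, and a tile entered only with at least 3 CpGs in every library. This left 11123 tiles at the centromere side and 11090 at the telomere side, 22213 of the 550538 measured autosomal tiles (4.03%). They were 19.5% of the 57000 tiles in each set of windows. Cytosines with fewer than 5 reads were absent from the tables, and the share of tiles lost for this reason was not tested. The rule used only position and coverage and no methylation value, but it was set with earlier results of these data known.

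Whole-genome bisulfite sequencing compared 2 control libraries with 2 libraries of the group labelled FGR in a series titled for intrauterine growth restriction. The labels do not say how growth was restricted. All 4 libraries came from mice with the genotype Tmem119-tdTomato+/-, a red reporter allele at a gene of microglia, and all were taken 3 weeks postpartum. How many animals went into a library is not given, so the spread between the 2 libraries of a group may be technical. The libraries listed between 6673944 and 10690176 autosomal CpGs at a mean of 7.25 to 8.41 reads per CpG, with FGR 1 the shallowest and FGR 2 the deepest. As a check of the labelled cell type, the starts of the microglial genes P2ry12, Fcrls, Sall1 and Cx3cr1 were methylated at 0% to 8.11% in every library within 1000 bases on either side. The starts of the lymphocyte genes Cd79a and Cd3e lay between 76.4% and 88.6%. Starts were measured for 8 of the 13 microglial marker genes, and the other 4 were not uniformly low: Siglech read 0% to 34.1%, Olfml3 1.64% to 45.5%, Trem2 18.4% to 23.1% and Aif1 67.7% to 96%. A low start was not particular to microglial genes: the neuronal gene Gad1 read 3% to 10.7%, Olig2 of the oligodendrocyte lineage 3.33% to 10.3% and the endothelial gene Flt1 1.82% to 6.76%.

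Next to the mouse centromere lies pericentromeric heterochromatin, built of major satellite repeats and packed with histone H3 methylated at lysine 9, and its repeats are heavily methylated at CpGs. The telomere itself is a simple repeat without CpGs in its unit, and the DNA inside it, the subtelomere, is known to be methylated as well. The first assembled bases of a chromosome and the last listed bases border these repeats, so the windows are mostly ordinary sequence with genes. In such sequence most CpGs are methylated, while CpG-rich promoters, the islands at which many genes start, are not.

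Promoter windows of 6 genes show the range of what was measured at the ends. Each is the 250 bases before the annotated start, on the strand of the gene, from RefSeq on GRCm38.p6. Capitals mark CpGs: for the first 3 those listed in all 4 libraries, for Krt2 those listed in any library, and for the last pair those listed in FGR libraries only. Chromosomes 8 and 18 were left out of this choice of promoters. On the others, at least 5 CpGs were listed in all 4 libraries for 1 promoter at the centromere side, that of Kmt5c. At the telomere side 3 promoters had as many, of which A130010J15Rik had the lowest and Tmem267 the highest control mean. The other windows were chosen after their values were seen, Krt2 as a methylated promoter with few CpGs, and Morc2a and Dus1l because the libraries listed different CpGs there.
Kmt5c, chr7:4739877-4740126, + strand, centromere side: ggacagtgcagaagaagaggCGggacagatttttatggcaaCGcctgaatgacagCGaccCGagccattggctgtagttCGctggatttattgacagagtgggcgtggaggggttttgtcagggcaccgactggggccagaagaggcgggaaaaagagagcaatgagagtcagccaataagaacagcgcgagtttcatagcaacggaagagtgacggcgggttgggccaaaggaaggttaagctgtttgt
A130010J15Rik, chr1:193173219-193173468, + strand, telomere side: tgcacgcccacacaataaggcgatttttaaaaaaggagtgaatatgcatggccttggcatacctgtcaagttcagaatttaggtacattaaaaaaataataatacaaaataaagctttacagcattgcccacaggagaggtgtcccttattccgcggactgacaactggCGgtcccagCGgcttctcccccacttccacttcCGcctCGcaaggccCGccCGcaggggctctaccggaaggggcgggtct
Tmem267, chr13:119488223-119488472, + strand, telomere side: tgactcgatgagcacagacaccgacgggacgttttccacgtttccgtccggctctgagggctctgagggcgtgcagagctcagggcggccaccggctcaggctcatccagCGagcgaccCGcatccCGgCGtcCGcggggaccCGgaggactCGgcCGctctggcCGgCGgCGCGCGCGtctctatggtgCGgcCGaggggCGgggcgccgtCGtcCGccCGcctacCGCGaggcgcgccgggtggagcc
Krt2, chr15:101818170-101818419, - strand, telomere side: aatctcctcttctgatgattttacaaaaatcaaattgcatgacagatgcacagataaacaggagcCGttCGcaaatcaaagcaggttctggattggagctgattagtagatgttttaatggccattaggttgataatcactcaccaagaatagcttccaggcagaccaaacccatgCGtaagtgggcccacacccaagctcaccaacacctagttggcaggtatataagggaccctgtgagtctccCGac
Morc2a, chr11:3649187-3649436, + strand, centromere side: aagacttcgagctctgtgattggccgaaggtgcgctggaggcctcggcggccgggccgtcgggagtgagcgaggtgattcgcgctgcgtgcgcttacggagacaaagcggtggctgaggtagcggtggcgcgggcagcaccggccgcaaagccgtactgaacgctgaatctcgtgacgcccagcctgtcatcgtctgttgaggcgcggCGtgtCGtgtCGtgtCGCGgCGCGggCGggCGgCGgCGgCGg
Dus1l, chr11:120796396-120796645, - strand, telomere side: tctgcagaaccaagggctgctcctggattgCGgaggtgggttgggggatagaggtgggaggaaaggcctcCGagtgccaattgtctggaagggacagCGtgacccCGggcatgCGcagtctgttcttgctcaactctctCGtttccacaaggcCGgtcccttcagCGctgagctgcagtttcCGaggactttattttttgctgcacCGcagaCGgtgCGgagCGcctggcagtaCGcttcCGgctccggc

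Kmt5c encodes an enzyme that trimethylates histone H4 at lysine 20, a mark of pericentromeric heterochromatin. Its 5 CpGs in capitals read 0% in all 4 libraries, from 25 to 38 reads each. The 6 CpGs of A130010J15Rik read 2.50% and 3.33% in the controls and 0% in both FGR libraries. Both windows were close to free of methylation in every library. Tmem267 encodes a membrane protein, and its window holds 39 CpGs in 250 bases with a G and C content of 74.4%. The 22 CpGs shown were methylated nevertheless, at 91.7% and 90.4% in the controls and at 93.6% and 75.8% in FGR. The groups overlapped there, since only FGR 2 was low. Krt2, a keratin gene of the epidermis, has 4 CpGs in its window, of which FGR 2 listed 4 and the other libraries 3 each. The listed CpGs read 66.7% and 81.8% in the controls and 86.7% and 86.8% in FGR, from as few as 15 reads. These levels compare CpGs that are partly different, since only 2 were listed in all 4 libraries. Methylated and unmethylated promoters thus both occurred at the chromosome ends.

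Over all listed CpGs the telomere side was less methylated than the centromere side in each of the 4 libraries. The centromere side stood at 78.4% and 78.7% in the controls and at 76.9% and 77.5% in FGR. The telomere side stood at 76.0% and 76.7% in the controls and at 74.9% and 75.7% in FGR. The other autosomal tiles read 77.9%, 78.3%, 76.7% and 77.5% in the same order. The telomere side was thus the lowest of the 3 in every library, while the centromere side lay within 0.523 points of the remaining autosomes. Telomere minus centromere came to -2.41, -1.93, -1.96 and -1.74 points in control 1, control 2, FGR 1 and FGR 2, a mean of -2.01 ± 0.281 points (SD, n = 4). An exact sign-flip test over 4 libraries cannot give less than 0.125 two-sided, and it gave that value (adjusted over 6 comparisons, 0.375). Against the rest of the autosomes the telomere side differed by -1.75 ± 0.159 points (SD, n = 4) and the centromere side by 0.262 ± 0.254 points (SD, n = 4), with exact two-sided p-values of 0.125 and 0.25. With 430324 to 687252 reads per side and library, Wilson 95% intervals were within 0.13 points of each level. They cover counting error only, and reads that span several CpGs count at each.

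FGR libraries read lower than controls at both ends and in the rest of the autosomes. The centromere side was at 78.5% ± 0.178 (SD, n = 2) in control and 77.2% ± 0.424 (SD, n = 2) in FGR, a difference of -1.35 points. The telomere side was at 76.4% ± 0.512 (SD, n = 2) and 75.3% ± 0.579 (SD, n = 2), a difference of -1.03 points. The rest of the autosomes differed by -0.938 points. Both FGR libraries lay below both controls in all 3 sets. The telomere difference shrank to -0.624 points without FGR 1 and to -0.671 without control 2. The exact permutation test over 6 assignments cannot go below 0.333 and gave 0.333 for either side (adjusted over 6 comparisons, 0.4). The difference between the sides was 0.320 points smaller in size in FGR, with an exact permutation p of 0.667, so the ends were not shown to differ in their response.

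Which CpGs a library lists depends on its depth, so the levels were also taken over the CpGs listed in all 4 libraries. These gave 2962 tiles at the centromere side, at 80.5% and 79.9% in control and 79.8% and 79.7% in FGR. They gave 2720 tiles at the telomere side, at 79.6% and 79.8% in control and 79.3% and 79.3% in FGR. On shared CpGs telomere minus centromere shrank from -2.01 to -0.471 points. FGR minus control shrank to -0.491 points at the centromere side and -0.335 at the telomere side, next to -0.397 in the rest. With CpGs of the highest coverage kept in, telomere minus centromere came to -3.71 points and FGR minus control at the centromere side to -0.557. With at least 10 reads per CpG, which left 119 and 64 tiles, the telomere side was higher by 6.11 points.

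**Figure D1:**
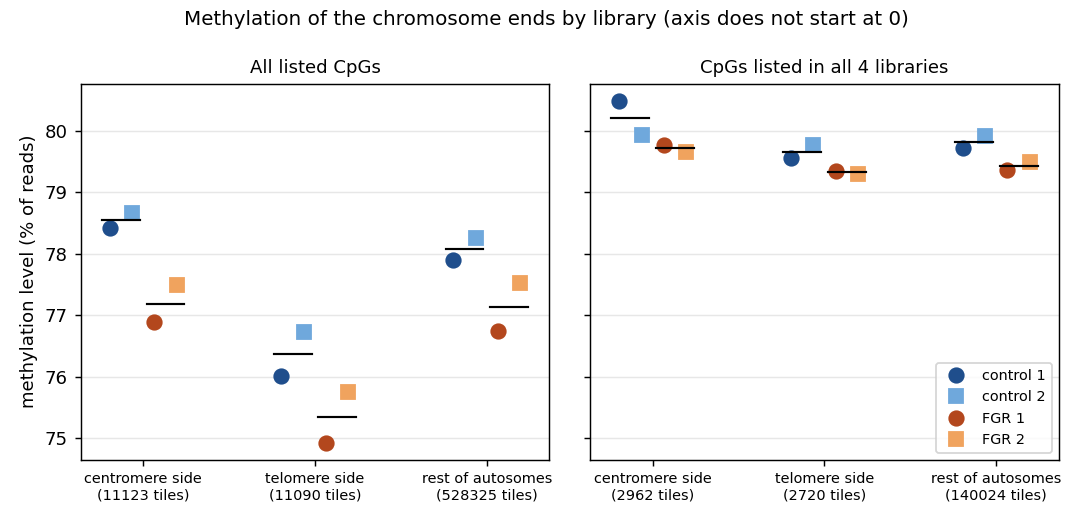
Methylation level in percent of reads (vertical axis, which does not start at 0) in each library for the centromere side, the telomere side and the rest of the autosomes, over all listed CpGs (left) and over CpGs listed in all 4 libraries (right). Points are libraries and lines are group means; the telomere side is lowest on the left, at 74.9% to 76.7%, and the 3 sets lie within 79.3% to 80.5% on the right.

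The mean over chromosomes hid large and opposite differences. The telomere side was lower in all 4 libraries on 9 of 19 chromosomes and higher in all 4 on 7 of 19. At shared CpGs these counts were 8 and 9, and the mean difference changed sign on chromosomes 6, 11, 14 and 19. On chromosome 15 the centromere side read 79.6%, 80.5%, 79.0% and 79.2% and the telomere side 67.2%, 67.8%, 65.6% and 67.3%, a difference of -12.6 points. Chromosomes 17 and 18 followed with -10.7 and -10.6 points. Chromosome 7 went the other way, with 69.1%, 67.8%, 67.5% and 67.4% at the centromere side and 72.8%, 73.9%, 71.9% and 72.9% at the telomere side, higher by 4.94 points. Chromosome 16 was higher at the telomere side by 3.96 points and chromosome 8 by 3.56. In each of these cases the libraries did not overlap between the sides. Across the 19 chromosomes the SD of the level was 4.37 points at the centromere side and 3.51 at the telomere side, above the mean difference between the sides. Shared CpGs left chromosome 15 at -7.66 points, chromosome 17 at -15.3, chromosome 18 at -7.28 and chromosome 7 at 8.84. Chromosome 14 rested on only 35 tiles at its centromere side, where FGR 1 and FGR 2 read 66.7% and 74.6%.

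**Figure D2:**
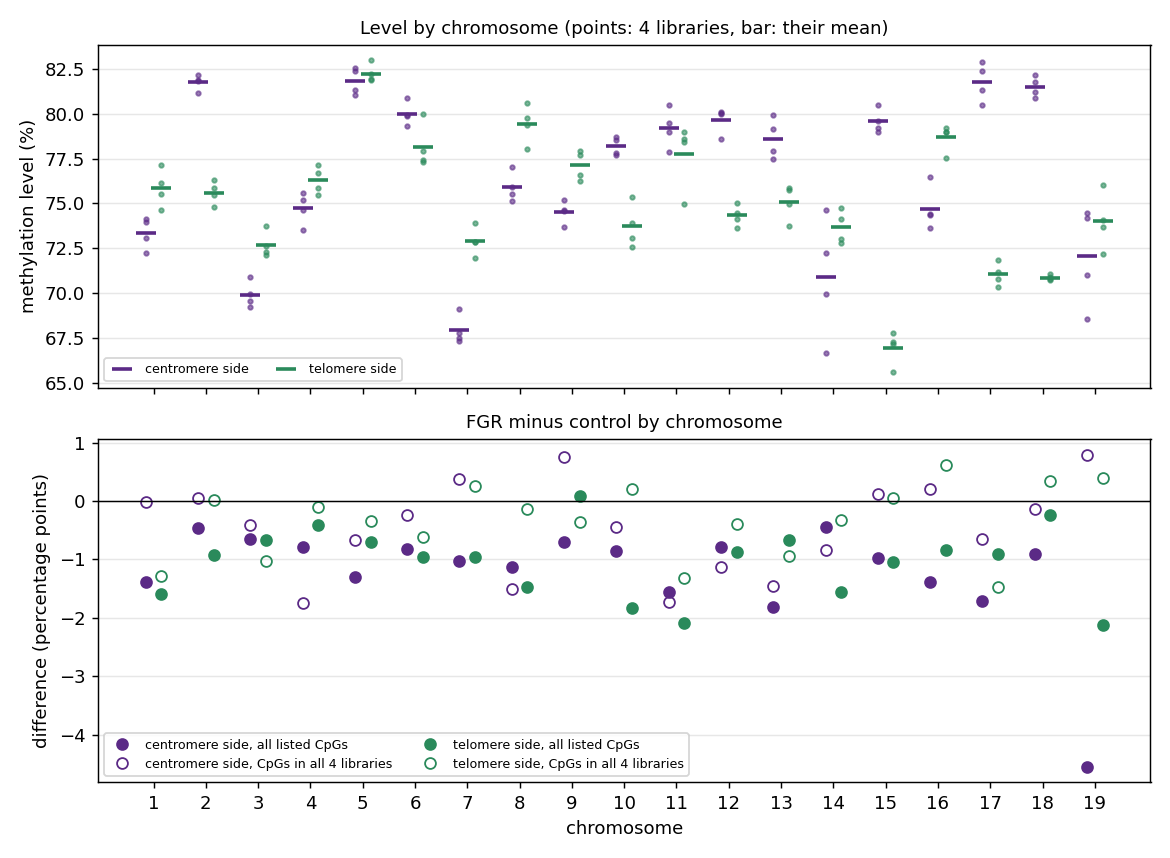
Methylation level by chromosome at each side (top, percent, axis not from 0; points are the 4 libraries and bars their mean) and FGR minus control in percentage points (bottom; filled, all listed CpGs; open, CpGs listed in all 4 libraries). The telomere side is far lower on chromosomes 15, 17 and 18, and the centromere side of chromosome 19 stands at -4.55 points over all listed CpGs but at 0.790 over shared CpGs.

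Levels also differed between windows of one chromosome end. In windows of 500 kb with at least 30 tiles, the level averaged over the 4 libraries ran from 57.9% to 89.8% at the centromere side (108 windows) and from 37.9% to 88.7% at the telomere side (114 windows). The lowest window of either side lay on chromosome 15 (chr15:102943121-103443120), at 35.7% and 38.1% in control and 39.9% and 37.8% in FGR. It holds the Hoxc cluster, transcription factors of body patterning whose genes sit in broad domains free of methylation in most tissues. Of 9 Hoxc genes at this end 7 had a tile, and their control means ran from 2.87% for Hoxc11 to 13.1% for Hoxc10, with a median of 7.83%. Hoxc6, with 6 tiles, read 6.59% and 9.07% in control and 8.91% and 8.21% in FGR. The groups overlapped for 5 of the 7 genes, and the other two were lower in FGR, beside 24.2% of autosomal genes with at least 5 tiles.

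The same 3 Mb of chromosome 15 carry a cluster of keratin genes, the intermediate filament proteins of epithelia, and these had a different profile. Of the 26 keratin genes at this end 25 had a tile, with control means from 25% for Krt77 to 94.5% for Krt18 and a median of 75.1%. Both FGR libraries lay below both controls for 7 of them and above for 4, where 24.2% and 11.1% of all autosomal genes with at least 5 tiles did so. Over their 66 tiles the keratin genes read 72.9% and 71.0% in control and 70.3% and 68.7% in FGR.

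Chromosomes 17 and 18 differed from this, since their telomere windows hold only 3 and 6 protein-coding genes. On chromosome 17 the window chr17:93386907-93886906, which holds no protein-coding gene, read 64.5%, 65.3%, 63.0% and 61.2%. Its neighbour holds Adcyap1, which encodes the neuropeptide PACAP, and Adcyap1 itself read 10.5% and 14.3% in control and 14.9% and 18.8% in FGR. On chromosome 13 the last window (chr13:119820925-120320924), with the early embryo genes Tcstv1 and Tcstv3, read 59.8%, 60.3%, 61.0% and 55.9%. The window before it, with Nnt and Tmem267, read 81.2%, 82.7%, 82.3% and 81.0%.

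At the centromere side the lowest window lay on chromosome 7 (chr7:3500001-4000000), at 61.9% and 56.9% in control and 56.3% and 56.6% in FGR. It holds Mboat7, which encodes a lipid acyltransferase, Rps9, a ribosomal protein gene, and the receptor genes Pirb, Pira1 and Pira2 of myeloid cells. The highest window lay on chromosome 18 over Svil and Zfp438, at 90.5%, 89.9%, 89.5% and 89.5%. High and low windows therefore both occurred within 3 Mb of the first assembled base.

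Levels varied less with the position inside the 3 Mb. Over the 6 steps of 500 kb at the centromere side the mean of the controls stayed between 77.5% and 80.5%. At the telomere side it ranged from 74.1% to 78.0%, lowest between 500 and 1000 kb from the last listed base. The last 500 kb of the telomere side read 76.9% and 77.3% in control and 75.3% and 76.0% in FGR. Measured tiles thinned out towards the telomere, from 25.8% of the tiles at 2500 to 3000 kb to 14.1% in the last 500 kb.

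The sides differ in the genes they carry. There were 610 protein-coding genes at the centromere side and 726 at the telomere side. The telomere side holds 58 olfactory receptor genes, all in a cluster on chromosome 10, and the centromere side 2. Vomeronasal receptor genes numbered 14 and 6, and pseudogenes 317 and 197. Only 13 tiles overlapped the olfactory receptor genes of chromosome 10, at 68.8% and 72.5% in control and 72.5% and 70.4% in FGR.

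Split by place, the telomere side was higher than the centromere side in tiles over promoter windows and lower in the other tiles. Tiles over a promoter window read 36.1% and 37.0% in control and 32.3% and 32.1% in FGR at the centromere side (263 tiles). Those of the telomere side read 42.3%, 45%, 37.1% and 41.8% (304 tiles), a mean of 7.17 points higher, and higher in all 4 libraries. Within genes the telomere side was lower by -2.17 points on average, and outside genes by -2.65 points, in each case in all 4 libraries. Gene starts with CpGs within 1000 bases could be measured for 414 of 624 starts at the centromere side and 455 of 693 at the telomere side. Of these, 41.3% and 38.9% were under 20% methylated in the controls, and 12.6% and 11% were over 80%. Pooled over these wider start regions the centromere side read 28.9%, 32.3%, 26.8% and 28.0% and the telomere side 32.3%, 34.5%, 26.5% and 31.7%, so that FGR 1 did not share the direction. Among all other autosomal starts 37.8% were under 20% and 12% over 80%.

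FGR minus control was largest in tiles with many CpGs. Tiles with 20 or more CpGs listed in any library read 66.9% and 68.5% in control and 60.3% and 64.0% in FGR at the centromere side, a difference of -5.56 points over 729 tiles. Those of the telomere side read 63.7%, 66.5%, 59.0% and 63.5%, a difference of -3.86 points over 938 tiles. In the rest of the autosomes the difference in this class was -3.19 points. Tiles with 6 to 9 CpGs differed by only -0.487 points at the centromere side and -0.268 at the telomere side. The 4 libraries listed different numbers of CpGs in dense tiles, and FGR 1, the shallowest, was the lowest of the 4 in each set. The part of depth in these differences was not tested.

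**Figure D3:**
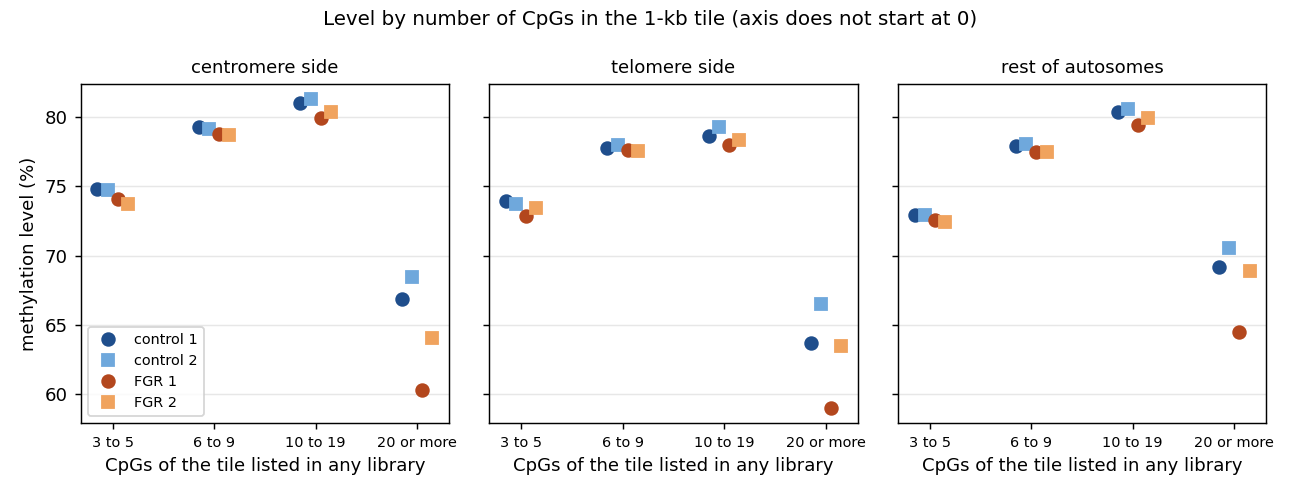
Methylation level in percent (vertical axis, not from 0) of tiles grouped by the number of their CpGs listed in any library, for each side and the rest of the autosomes; points are libraries. In tiles with 20 or more CpGs the centromere side spans 60.3% to 68.5%, while in tiles with 6 to 9 CpGs it spans 78.7% to 79.3%.

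By chromosome, the FGR mean was lower on 19 of 19 chromosomes at the centromere side and on 18 of 19 at the telomere side. In 13 and 12 of the 19 the groups did not overlap and FGR was lower. The corresponding share for the rest of each autosome was 100%, and 89.5% at shared CpGs, where the ends gave 5 of 19 at either side. Chromosome 19 stood out at its centromere side, with 74.5% and 74.2% in control and 68.5% and 71.0% in FGR. That difference of -4.55 points became 0.790 points at the CpGs listed in all 4 libraries. Without chromosome 19 the centromere side differed by -1.10 points and the telomere side by -0.959. Of the 500-kb windows, 46 of 108 at the centromere side and 41 of 114 at the telomere side had both FGR libraries lower, against 35.9% of all autosomal windows. Both FGR libraries were higher in 4 and 5 of them, against 5.88%.

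A small set of CpGs near the centromere was read far more often than the rest. CpGs above 25 reads (26 in FGR 1), the top 0.1% of a library by coverage, were left out of the tiles. They made up 0.620% to 0.823% of listed CpGs at the centromere side, 0.130% to 0.168% at the telomere side and 0.0766% to 0.0832% elsewhere. Such pile-ups are typical of repeats that the assembly holds in fewer copies than the genome. At runs of 5 or more neighbouring CpGs above the limit in all 4 libraries, 13 at the centromere side and 6 at the telomere side, the levels could be read from many reads.

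The largest run lay at the first assembled bases of chromosome 9 (chr9:3000031-3038257), a stretch known to hold major satellite repeats in this build. The identity of its sequence was not checked here. Its 642 CpGs had 1610846, 1604794, 1202659 and 1454131 reads in control 1, control 2, FGR 1 and FGR 2. They were methylated at 80.2% and 80.4% in control and 80.1% and 80.3% in FGR, a difference of -0.0766 points. The groups overlapped. A run of 6 CpGs on chromosome 12 (chr12:3109883-3110118), with 8897 to 10009 reads per CpG, read 85.2% and 85.1% in control and 84.8% and 85% in FGR. The run over Sfi1 on chromosome 11, a centrosome gene with many copies in the mouse genome (chr11:3153828-3200013, 212 CpGs), read 67.1%, 67.7%, 65.9% and 65.7%. In the runs on chromosomes 12 and 11 both FGR libraries were lower, by -0.225 and -1.58 points. The run beside the Tmem267 promoter (chr13:119488731-119495154, 62 CpGs) read 87.6%, 87.6%, 86.3% and 88.3%.

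Over the 19 runs both FGR libraries were lower in 7 and higher in 3, and the groups overlapped in 9. Runs were not taken elsewhere on the autosomes, so there is no share over all runs to set beside these counts. Both FGR libraries were lower in 17.7% of all autosomal tiles and in 35.9% of all 500-kb windows. They were higher in 15.3% and 5.88%. A run of 36 CpGs on chromosome 6 (chr6:3181488-3201588) read 28.3% and 29.8% in control and 21.2% and 20.1% in FGR. A run of 19 CpGs inside Lars2 at the telomere side, the gene of the mitochondrial leucine tRNA ligase (chr9:123461807-123462184), read 26.2% and 29.7% in control and 18.8% and 20.4% in FGR. In this run both FGR libraries were lower at 17 of the 19 CpGs. These CpGs lie within 0.378 kb and share reads, so they are not replicates. With 291 to 341 reads per CpG, the run may hold reads from copies elsewhere, so its level may not be that of Lars2 itself. A run on chromosome 10 (chr10:3109661-3117007, 68 CpGs) read 79.5%, 77.8%, 73.7% and 75.7%. Short runs on chromosome 4 (chr4:3236118-3240808, 7 CpGs) and chromosome 13 (chr13:3372927-3373545, 5 CpGs) were higher in FGR, by 3.50 and 3.93 points. These runs were picked out after their values were seen and carry no test.

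The run on chromosome 3 (chr3:5860340-5860765, 36 CpGs, outside annotated genes) differed in reads as well as in level. It read 25.2% and 27.5% in control and 67.0% and 66.3% in FGR, at 253 and 249 reads per CpG in control and 712 and 762 in FGR. The excess was largest at 11 CpGs between bases 5860365 and 5860541, where each FGR library had over 2 times the reads of either control. There the levels were 21.7% and 22.1% in control and 81.4% and 79.0% in FGR, at 368 and 356 against 1703 and 1857 reads per CpG. Pooled over the other 25 CpGs of the run the libraries read 28.0%, 31.7%, 28.0% and 29.0%, and the groups overlapped. Reads per CpG there were 202 and 203 in control and 276 and 280 in FGR. Singly, 13 of these were lower in both FGR libraries, by -10.9 points at base 5860682, and 2 were higher, by 30.6 points at base 5860560 and 22.5 at base 5860355. Base 5860560 had 405 and 382 reads in control and 717 and 852 in FGR, and base 5860355 had 131 and 128 against 244 and 296. Both FGR libraries were higher in level at 10 of those 11 CpGs, and at base 5860367 the groups overlapped. The CpGs of the run lie within 0.426 kb and share reads, so they are not replicates. The part of the extra reads in the level was not tested.

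**Figure D4:**
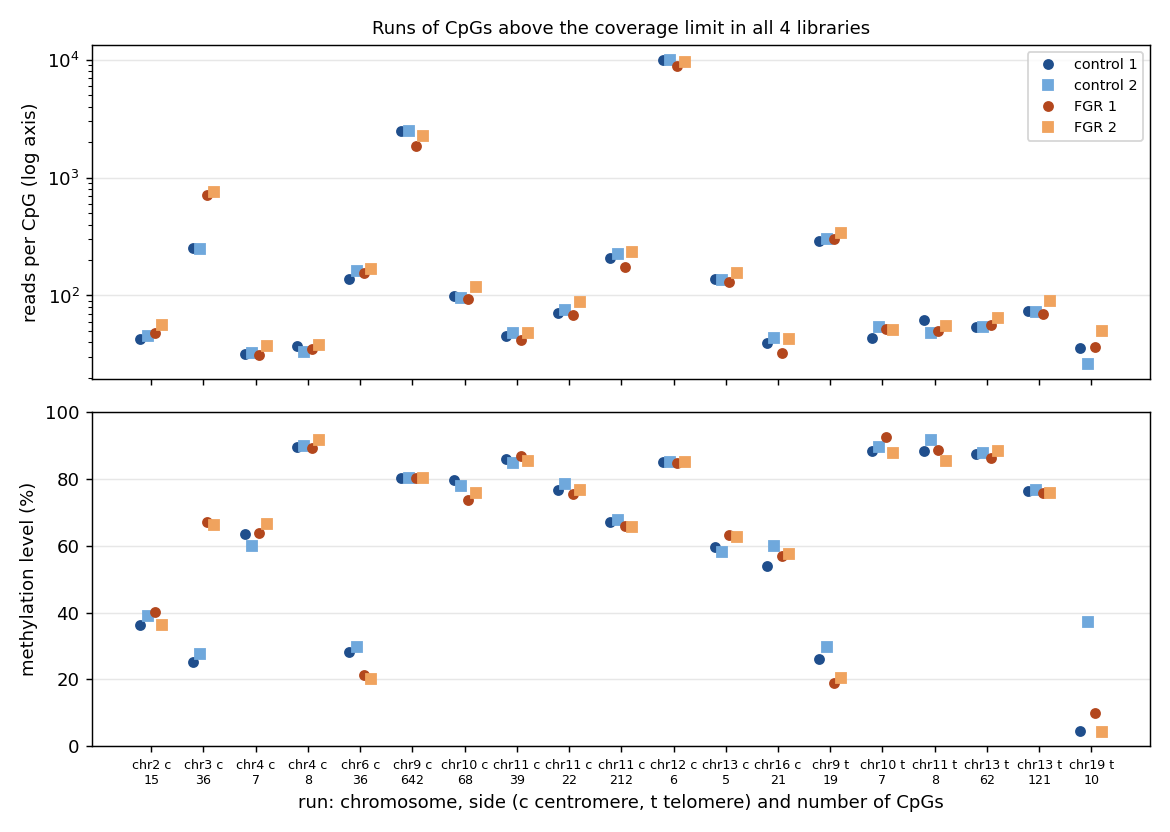
Reads per CpG (top, log axis) and methylation level in percent (bottom) of the runs of CpGs above the coverage limit in all 4 libraries, one column per run; points are libraries. On chromosome 9 all libraries sit at 80.1% to 80.4%, and on chromosome 3 the FGR libraries stand at 66.3% and 67.0% against 25.2% and 27.5%, with more reads.

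Few single tiles separated the groups. A quasi-binomial test over all 550538 tiles, with overdispersion moderated by limma's squeezeVar in its robust form, called 745 tiles (0.135%). A called tile has a p under 0.05 after Benjamini-Hochberg adjustment and group means 10 or more points apart. Of these, 15 lay at the centromere side (3 higher and 12 lower in FGR) and 15 at the telomere side (4 higher and 11 lower), the same share as over all autosomes. The form of squeezeVar that is not robust called 0 tiles at either side and 1 of all tiles (0.000182%). At an unadjusted p under 0.05 it gave 550 and 590 tiles (4.94% and 5.32%), against 5.01% of all tiles. Limma on log ratios called 0 of all tiles. Unadjusted, limma gave 526 and 536 tiles (4.73% and 4.83%), against 4.58% of all tiles. At that unadjusted level the robust form gave 632 and 686 tiles (5.68% and 6.19%), against 5.67% of all tiles. Calls also ended when any library was left out, when only shared CpGs were used, and with the replicate number as a block. Counts in tiles whose groups did not overlap were close to the background too: both FGR libraries were lower in 18.2% and 17.5% of tiles at the centromere and telomere sides against 17.7% of all tiles, and higher in 14.7% and 15.6% against 15.3%.

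The called tiles had unlike CpGs in the groups. A called tile had a median of 18.5 CpGs listed in any library and 4.5 listed in at least one library of both groups. Over all listed CpGs the median size of the difference was 47.6 points, and over the CpGs of both groups it was 15.5 points in the direction of the call. That direction held in 24 of the 29 tiles with such CpGs. In 16 of the 30 called tiles no CpG was listed in all 4 libraries, and in the others at most 3 were.

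The Morc2a tile (chr11:3649001-3650000) shows this. Morc2a encodes an ATPase of gene silencing, and its tile read 95.7% and 100% in control and 15.1% and 2.78% in FGR (adjusted p = 1.28e-05 in the quasi-binomial test). The controls listed 3 CpGs each there and the FGR libraries 8 and 21, and no CpG was listed in both groups. In the promoter window printed above, the 12 CpGs in capitals were listed in FGR 2 only and read 0%. In the same way the Dus1l tile (chr11:120796001-120797000) read 40.9% and 40% in control and 5.45% and 1.02% in FGR. Dus1l encodes a tRNA dihydrouridine synthase, and in its window FGR 1 and FGR 2 listed 15 and 11 CpGs, at 0.926% and 0%, and the controls none. Its 4 CpGs listed in both groups read 26.4% in control and 17.4% in FGR, pooled over the libraries of a group. The Tbc1d10a tile (chr11:4187001-4188000) was higher in FGR, at 15.8% and 18.4% in control and 89.5% and 67.7% in FGR, while its 3 CpGs of both groups read 88% in control and 90% in FGR. Tbc1d10a encodes a GTPase activating protein. The Klc2 tile (chr19:5107001-5108000), in the gene of a kinesin light chain, read 93.5%, 84.6%, 41.7% and 16.4%, and its 3 CpGs of both groups 91.7% and 89.5%.

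In other called tiles the difference was also present at the CpGs of both groups. At Sgce (chr6:4746001-4747000), an imprinted gene next to Peg10, the libraries read 84.8% and 80% in control and 36.1% and 29.3% in FGR (adjusted p = 0.0224). Its 6 CpGs of both groups read 86.8% in control and 38.2% in FGR. A tile 10911 bases from Casd1 (chr6:4589001-4590000) read 38.9%, 34.1%, 74.5% and 84.4%, and its 7 CpGs of both groups 45.9% and 84.1%. Adcy9, an adenylate cyclase gene, had a tile (chr16:4381001-4382000) at 93.3%, 88.6%, 34.2% and 34.1%, with 89.8% and 59.6% at 6 CpGs. Of the other tiles named by the rule at the centromere side, those in Syne1 and Ttc33 were lower by -54.7 and -50 points, and the one in Pcx was higher by 42.7. Over the CpGs of both groups these differences were smaller: -16.7 points at Syne1 (1 CpG), -21.5 at Ttc33 (3 CpGs) and 19.6 at Pcx (6 CpGs).

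The called tile with the largest negative difference at the telomere side was in Faap20 (chr4:155250001-155251000), a gene of DNA crosslink repair, at 100%, 47.6%, 13.3% and 10.8%. Its 3 CpGs of both groups differed by -20 points. Ubac2, Etfbkmt and Arl16 held tiles with differences of -54.2, -49.9 and -49.8 points. Over their CpGs of both groups, 1, 9 and 3 in number, these were -10, -24.0 and -7.44 points. A tile near Krt79 differed by -51.5 points and the one at Tarbp2 and Npff by -47.3, against -29.6 and -6.79 at such CpGs. The tiles higher in FGR were near Pdzd8 (64.7 points), Katnal1 (47.5), Cyp8b1 (37.2) and in Ccdc40 (41.0). For Pdzd8, Cyp8b1 and Ccdc40 the CpGs of both groups differed by 15.5, 9.54 and 28.3 points. The Katnal1 tile (chr5:148813001-148814000) lay 57584 bases from the gene and read 25%, 25.7%, 72.7% and 73%, with 20.9% and 51.4% at 4 CpGs of both groups.

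Csf2ra encodes the alpha chain of the GM-CSF receptor, through which microglia and other myeloid cells respond to this growth factor. It was singled out after its values were seen, for the number of CpGs behind it. Its tile at the telomere side of chromosome 19 (chr19:61226001-61227000) read 34.8% and 34.9% in control and 7.66% and 14.3% in FGR (adjusted p = 0.0149). The 19 CpGs of both groups, pooled over the libraries of a group, read 33.7% in control and 15.7% in FGR. No CpG of this tile was listed in all 4 libraries. Over all listed CpGs both FGR libraries were below both controls, on 105 to 209 reads per library. The quasi-binomial test with the form of squeezeVar that is not robust gave an adjusted p of 0.379.

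**Figure D5:**
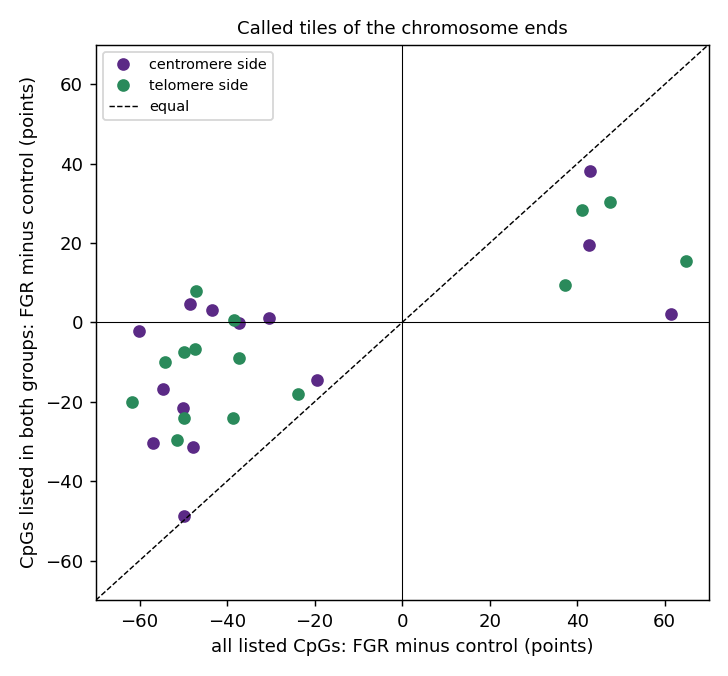
Each called tile of the chromosome ends that has CpGs listed in both groups, with FGR minus control in points over all listed CpGs (horizontal) and over the CpGs of both groups only (vertical); the dashed line marks equal values. Most tiles lie nearer to 0 on the vertical axis, with a median of 15.5 points in the direction of the call, against 47.6 over all listed CpGs of the 30 called tiles.

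Group differences were also taken over whole genes. At least 5 tiles were measured for 263 genes at the centromere side and 283 at the telomere side. Both FGR libraries lay below both controls for 65 and 52 of them, against 24.2% of all such genes, and above for 21 and 50, against 11.1%. In shares this was 24.7% lower and 7.98% higher at the centromere side and 18.4% lower and 17.7% higher at the telomere side. The median difference was -0.799 points at the centromere side, -0.352 at the telomere side and -0.819 over all autosomal genes.

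The least methylated genes of the centromere side, by the mean of the controls, began with Klf6, a zinc finger transcription factor, at 24.8% and 40.3% in control and 34.6% and 38.2% in FGR. Mboat7 followed at 25.4%, 39.9%, 26.1% and 30.9%, and the opioid peptide gene Penk at 42.7%, 37.8%, 50% and 57.3%. At CpGs listed in all 4 libraries, Klf6 read 41.7% to 50% (9 CpGs), Mboat7 92.1% to 97.2% (6) and Penk 95% to 97.3% (4). Bambi, Npas4 and Naa60 had control means of 48.3%, 49.9% and 50.2%. At the telomere side Hoxc6 and Adcyap1 were lowest. Lrp1, which encodes a receptor of lipoprotein and debris uptake, came next at 44.8%, 41.4%, 53.5% and 38.6%, then Fn3k, Dgka and Cttn at 43.9%, 49.0% and 51.9% in the mean of the controls. The most methylated genes were Kbtbd3 and Cep131, both at 95.7% in control, followed by Lypla1, Glyr1 and Casd1 at the centromere side and Fgfr1op2, Lrrc40 and Limd1 at the telomere side, all at 93.4% or above.

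Genes were also chosen for the largest group differences over all listed CpGs. At the centromere side Ighmbp2, a helicase gene, read 73.3% and 86% in control and 48.1% and 49.8% in FGR, a difference of -30.7 points. Mrpl15 differed by -27.7, Pnpla6 by -22.6 and Rhod by -18.0 points. The largest positive differences were in Tbc1d10a (16.2), Sec14l5 (14.6), Dnaja3 (14.5) and Penk (13.4). Gpr183 of the telomere side, an oxysterol receptor of immune cells, read 49.9%, 66.5%, 38.2% and 46.7%, a difference of -15.7 points. Ergic2, Tomm20 and Csnk1d differed by -13.0, -11.6 and -11.5 points. Nckap1l, which encodes a regulator of actin in blood cells, read 58.3%, 46.1%, 73.0% and 73.5%, a difference of 21.1 points. Cttn, Sarnp and Map3k12 were higher in FGR by 16.2, 16.1 and 14.5 points. At CpGs listed in all 4 libraries these 16 differences, which ran from -30.7 to 21.1 points, lay between -4.86 and 5.21 points, and 11 of the 16 had the same sign. The genes were picked as extremes over all listed CpGs, so smaller values at a subset of CpGs also follow from that choice. The part of the CpGs listed was not tested.

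Imprinted genes, expressed from one parental copy, form 2 clusters in these windows. The Peg10 cluster lies at the centromere side of chromosome 6, where 6 of 6 located genes were measured and 3 were lower in FGR in both libraries (24.2% of autosomal genes were), with a median difference of -1.93 points. Sgce read 86.3% and 87.3% in control and 82.0% and 84.3% in FGR, but 0.103 points apart at shared CpGs. The groups overlapped at shared CpGs for Sgce and also for Ppp1r9a and Pon1, which were counted as lower too. Peg10, a gene derived from a retrotransposon, read 81.6%, 83.6%, 82.9% and 67.6%, with only FGR 2 low. The Kcnq1 cluster lies at the telomere side of chromosome 7, where 7 of 16 located imprinted genes were measured, 2 lower and 1 higher. Kcnq1, a potassium channel gene, read 82.2% and 81.0% in control and 77.5% and 79.4% in FGR, and Kcnq1ot1, the noncoding RNA within it, 76.8%, 75.1%, 72.1% and 75.1%. Their groups overlapped at shared CpGs, with FGR minus control at 0.755 points for Kcnq1 and 1.04 for Kcnq1ot1. Dhcr7, of cholesterol synthesis, was the one higher in FGR, at 86.9%, 85.6%, 91.6% and 90.6%. The median over the 7 genes was -0.875 points, beside -0.819 over all autosomal genes with at least 5 tiles.

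Chemokine receptor genes cluster at the telomere side of chromosome 9, and 5 of 9 located genes were measured. Cxcr6, a receptor of T cells, read 72.1%, 84.0%, 87.3% and 91.4%, and Xcr1, of dendritic cells, 88.3%, 88.0%, 87.9% and 87.5%. For shared CpGs the groups overlapped at Cxcr6 (3.27 points) and both FGR libraries were lower at Xcr1 (-8.72 points). Around the start of Ccr2, a receptor of monocytes, the level was 89.7%, 90.3%, 94.1% and 87.9%. Of the 5 genes 1 was higher and 1 lower in both FGR libraries, beside 11.1% and 24.2% of autosomal genes, with a median difference of -0.457 points.

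Among inflammatory and interferon genes 5 of 10 were measured at the centromere side, none without overlap between the groups, and 3 of 7 at the telomere side. Stat6, the transcription factor of interleukin 4 signalling, read 94.1% and 86.8% in control and 74.6% and 80.1% in FGR, and differed by -8.31 points at shared CpGs. Tnfrsf14, a receptor of the TNF family, read 66.3%, 72.9%, 84.9% and 81.3%, and 0.833 points apart at shared CpGs. Rela, a subunit of NF-kappaB, read 94.5%, 92.3%, 89.8% and 93.2%. The median differences were -1.92 points at the centromere side and -0.201 at the telomere side.

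Genes that act on heterochromatin and DNA methylation also lie in these windows. Suv39h2, which encodes a histone H3 lysine 9 methyltransferase of pericentromeric heterochromatin, read 66.0% and 63.0% in control and 75.3% and 69.7% in FGR over 11 tiles, but 0.443 points apart at shared CpGs. Around its start it read 0.787% to 5.77%. Dnmt3a, a DNA methyltransferase gene, read 79.4%, 79.3%, 79.3% and 75.1%. Cbx5, the gene of heterochromatin protein 1 alpha, read 61.0%, 61.4%, 64.5% and 72.0% and 0% to 1.52% around its start. Rtel1, a helicase of telomere maintenance, read 75%, 71.9%, 65.9% and 67.2%, with -0.256 points between the groups at shared CpGs. Crebbp, a histone acetyltransferase gene, read 89.9%, 82.5%, 80.6% and 77.0%, and Arid1b, of a chromatin remodelling complex, 85.95%, 83%, 82.1% and 83.3%. Of the 5 measured chromatin and telomere genes 2 were lower and 2 higher in both FGR libraries, beside 24.2% and 11.1% of autosomal genes. At shared CpGs the groups overlapped for all 5, with differences of -0.495 points for Crebbp and 0.820 for Cbx5.

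Cell type markers gave few measured genes at these ends. Of the microglial and myeloid list only Lrp1, given above, and Cd63, of the lysosomal membrane, were measured, and Cd63 read 62.4%, 87.4%, 69.2% and 69.4%. The neuronal genes Xkr4, Rgs20, Gria4, Oprk1 and Chrna4 had at least 3 tiles each, and the groups overlapped for each of them, with Gria4 at 72.7%, 69.8%, 72.3% and 72.2%. The endothelial gene Erg read 75.4% and 74.5% in control and 76.2% and 76.2% in FGR over 73 tiles, and Ets2 93.2%, 85.3%, 74.2% and 82.7%. Insr read 86.3%, 91.4%, 82.3% and 84.6%. The groups overlapped at shared CpGs for Erg, Ets2 and Insr, with differences of 0.556, -4.53 and 0.290 points. The lymphocyte gene Cd226 read 65.8%, 67.9%, 66.3% and 70.7%, and Myt1, of the oligodendrocyte lineage, 51.4%, 77.2%, 48.5% and 62.5%. No pure population of these cells was at hand to set beside them, so the share of other cells in the libraries was not tested.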

How the data were processed

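Genomic DNA of hippocampal microglia was sonicated and bisulfite converted, per the labels' protocols. Trim Galore 0.6.5, Bismark, methylKit 1.28.0 and the build mm10 are listed in the submitters' processing notes, without settings. The 4 deposited tables give, for each listed cytosine of a CpG, a count of reads, at least 5, and the percent of reads with C or T, per the file headers. Both strands were summed per CpG, the 0.1% of CpGs with the highest coverage in each library were left out, and levels are methylated reads over all reads. The end windows, gene lists and named items were chosen with earlier results of these data known. Levels were compared by exact tests over libraries. Tiles were tested on methylated and unmethylated reads with a quasi-binomial model with group as its term and squeezeVar of limma 3.58.1 (R 4.3.3, Python 3.11.15), with a trend on coverage, and Benjamini-Hochberg adjustment over all autosomal tiles. The plain form of squeezeVar, used at first, did not recover changed tiles on simulated data, so its robust form was taken instead, after the calls of both were known. The simulated tiles held no differences between libraries in the CpGs listed. The simulation therefore cannot say how many calls of the robust form arise where libraries list different CpGs. The genes named are, per side, the 6 with the lowest and the 4 with the highest control mean, the 4 largest rises and falls without overlap among genes with at least 5 tiles (symbols starting with Gm or ending in Rik left out), and up to 6 genes a list with at least 3 tiles. The tiles named are the 6 largest rises and falls among called tiles of a side. Genes came from RefSeq, GRCm38.p6, in which 159 of the 165 list genes were found. The labels do not say whether replicate numbers pair the libraries. Across member tiles, deviations of same-numbered libraries correlated at -0.000156. This value cannot settle pairing, because tile levels rest on few reads and on CpGs that differ between libraries. Some genes that the naming rule covers are not reported here.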

Additional observations from a re-analysis of the deposited data

How the results depend on the processing

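Depth limits these results: a listed CpG has a mean of 7.25 to 8.41 reads, and which CpGs are listed differs between libraries. FGR minus control kept its sign at both ends under every alternative run, from -1.65 to -0.491 points at the centromere side and from -1.63 to -0.335 at the telomere side. Telomere minus centromere stayed between -3.71 and -0.471 points except with at least 10 reads per CpG, which left 119 and 64 tiles and gave 6.11 points. That setting also reversed the change of this difference in FGR (-0.844), centromere minus rest (-2.18) and telomere minus rest (3.93). The change in FGR also reversed with no coverage limit (-0.586) and outside genes and promoters (-0.0260), the latter chosen after seeing the data. Centromere minus rest reversed with the mean of chromosome levels (-0.9998), 5 CpGs per tile (-0.766) and sides of 1 Mb (-0.568). The cause was not tested. Leaving out each library in turn gave -2.10 to -1.88 for telomere minus centromere, -1.65 to -1.05 and -1.44 to -0.624 for FGR minus control at the centromere and telomere sides, 0.0833 to 0.556 for the change in FGR, 0.175 to 0.361 for centromere minus rest and -1.83 to -1.70 for telomere minus rest. Against 15 called tiles a side, squeezeVar that is not robust gave 0 and 0 (added after seeing the data), limma 0 and 0, shared CpGs 0 and 0, 5 CpGs per tile 2 and 3, 10 reads per CpG 0 and 1, sides of 1 Mb 3 and 2, and leaving out any library 0 to 0. The replicate block gave 0 and 0 called tiles and did not move the level differences of -1.35 and -1.03 points.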
